A study of Arabidopsis thaliana with 12 samples.

Results

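The arid2/3/4 mutant was set against the nrpe1 mutant over the 4213 regions of 500 bp that the deposited small RNA tables of both repeats list, of 6125 listed in either table. The 4 libraries compared, of 12 in the series, are repeats 1 and 2 of each mutant, and each repeat was compared within its own table. Small RNAs were sequenced from total RNA of whole Arabidopsis thaliana seedlings, 10 days old, grown on plates at 22 °C under a 16 h day and an 8 h night. The arid2/3/4 plants are homozygous triple mutants (arid2-/- arid3-/- arid4-/-), the nrpe1 plants are nrpe1-/-, and wild type (WT), with 2 repeats as well, serves only as a baseline. Values of epcr1/2 (epcr1-/- epcr2-/-) and of hda6 (hda6-/-, spelled had-/- in the genotype field of its repeat 1) are given for a few loci, and nrpd1 (nrpd1-/-, without RNA polymerase IV) entered the fit only. Allele names, the number of plants per library and whether the repeats are separate cultures are not given. The p-values therefore rest only on the spread between these libraries, pooled over regions of similar score, and that spread may be technical.

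ARID2, ARID3 and ARID4 are proteins with an ARID DNA-binding domain and belong to the PEAT complexes, which act on histone acetylation and the silencing of heterochromatin. NRPE1 is the largest subunit of RNA polymerase V, which transcribes scaffold RNAs at the targets of RNA-directed DNA methylation. Short interfering RNAs (siRNAs) made from precursors of RNA polymerase IV pair with these scaffolds and guide methylation there. Some loci lose their siRNAs without Pol V and others keep them, so nrpe1 gives a scale on which the loss of another component can be read.

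The value in each region is a score, a whole number that the authors derived from the reads and that behaves as a normalized abundance; the depth of the libraries is unknown. Over the 4213 regions the scores summed to 1698720 and 1954866 in arid2/3/4 (repeats 1 and 2), 994165 and 672482 in nrpe1, and 1260502 and 1016199 in WT. WT scored at least 100 in 99.5% and 99.8% of these regions, with a lowest score of 95 and 98, so regions with few small RNAs in WT are outside this comparison. Differences are on the log2(score + 89) scale, which understates the change of low regions. These libraries hold no messenger RNA, so the genotypes could not be checked on transcripts of the mutated genes.

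The regions where arid2/3/4 fell furthest below nrpe1 have sequences of their own, while a short repeated sequence runs through the regions where it stood furthest above. These sequences are shown here because the regions that hold them are described below. The first 3 stretches are each 300 bases (RefSeq TAIR10.1, forward strand) from the middle of the 3 regions most lowered in arid2/3/4 against nrpe1, with CG dinucleotides in capitals, the context that maintenance methylation copies.
chr2:2604101-2604400, in the region of the protein-coding gene AT2G06555: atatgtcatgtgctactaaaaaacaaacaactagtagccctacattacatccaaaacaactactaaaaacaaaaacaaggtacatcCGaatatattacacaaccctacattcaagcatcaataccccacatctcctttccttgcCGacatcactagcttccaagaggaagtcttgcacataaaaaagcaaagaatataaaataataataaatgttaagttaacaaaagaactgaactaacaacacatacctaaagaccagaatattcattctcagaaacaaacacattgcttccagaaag
chr3:15639601-15639900, between genes near the pseudogene AT3G43730: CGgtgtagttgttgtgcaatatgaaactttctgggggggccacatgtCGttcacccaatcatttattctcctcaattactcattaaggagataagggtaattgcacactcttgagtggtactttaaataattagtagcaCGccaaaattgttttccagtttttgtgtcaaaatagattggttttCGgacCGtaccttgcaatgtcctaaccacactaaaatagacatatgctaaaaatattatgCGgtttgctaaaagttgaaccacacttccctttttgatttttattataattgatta
chr4:3768101-3768400, between genes near AT4G06634 (YY1): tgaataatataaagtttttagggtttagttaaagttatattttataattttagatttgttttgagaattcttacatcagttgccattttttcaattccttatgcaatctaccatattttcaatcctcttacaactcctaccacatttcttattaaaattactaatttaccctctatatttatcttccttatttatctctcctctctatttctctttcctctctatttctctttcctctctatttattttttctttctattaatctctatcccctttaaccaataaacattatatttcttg
These stretches hold 2, 6 and 0 CG dinucleotides in the order shown. The stretch below comes from the region most raised in arid2/3/4 against nrpe1, and its capitals mark 3 copies of a 25-base sequence that recurs in other regions with the same pattern.
chr3:7922102-7922401, between genes near AT3G22380 (TIC): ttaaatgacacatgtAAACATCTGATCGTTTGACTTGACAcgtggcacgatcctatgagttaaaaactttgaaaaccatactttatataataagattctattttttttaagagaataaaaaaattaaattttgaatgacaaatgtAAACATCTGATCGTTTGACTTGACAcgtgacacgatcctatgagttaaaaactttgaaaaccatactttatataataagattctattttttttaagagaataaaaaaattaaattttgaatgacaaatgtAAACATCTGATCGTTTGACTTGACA

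At most regions arid2/3/4 had more small RNA than nrpe1, which need not be a smaller loss from WT. Over all regions the median scores were 239 and 259 in arid2/3/4, 173 and 116 in nrpe1 and 209 and 165 in WT. The score was higher in arid2/3/4 than in nrpe1 at 3282 regions (77.9% of those tested), lower at 288 (6.84%) and not called at 643, so that 84.7% were called in either direction (limma, Benjamini-Hochberg adjusted p under 0.05). The median log2 difference over regions was 0.53 in repeat 1 and 0.97 in repeat 2, a mean of 0.75 ± 0.31 (SD, n = 2). arid2/3/4 stood above nrpe1 in both repeats at 3368 regions (79.9%) and at or below it in both at 346 (8.21%), and the repeats fell on different sides at 499. Of the 288 regions called lower, 270 scored below nrpe1 in both repeats. Against WT, 1217 regions (28.9%) were lowered in arid2/3/4 and 1868 (44.3%) in nrpe1, and both counts use the same WT libraries. The listed regions have few low scores in WT, as given above, which may favour calls below WT in both mutants. The split depends on scaling. Calls in the higher direction were 91.9% of all calls as deposited, 72.6% (851 lower and 2259 higher) with libraries scaled to a common median and 52.7% (975 lower and 1086 higher) with quantile normalization. The median fitted difference was 0.76 as deposited, 0.26 at a common median and 0.044 with quantile normalization, so a region below nrpe1 as deposited lies still further below the centre of all regions.

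**Figure D1:**
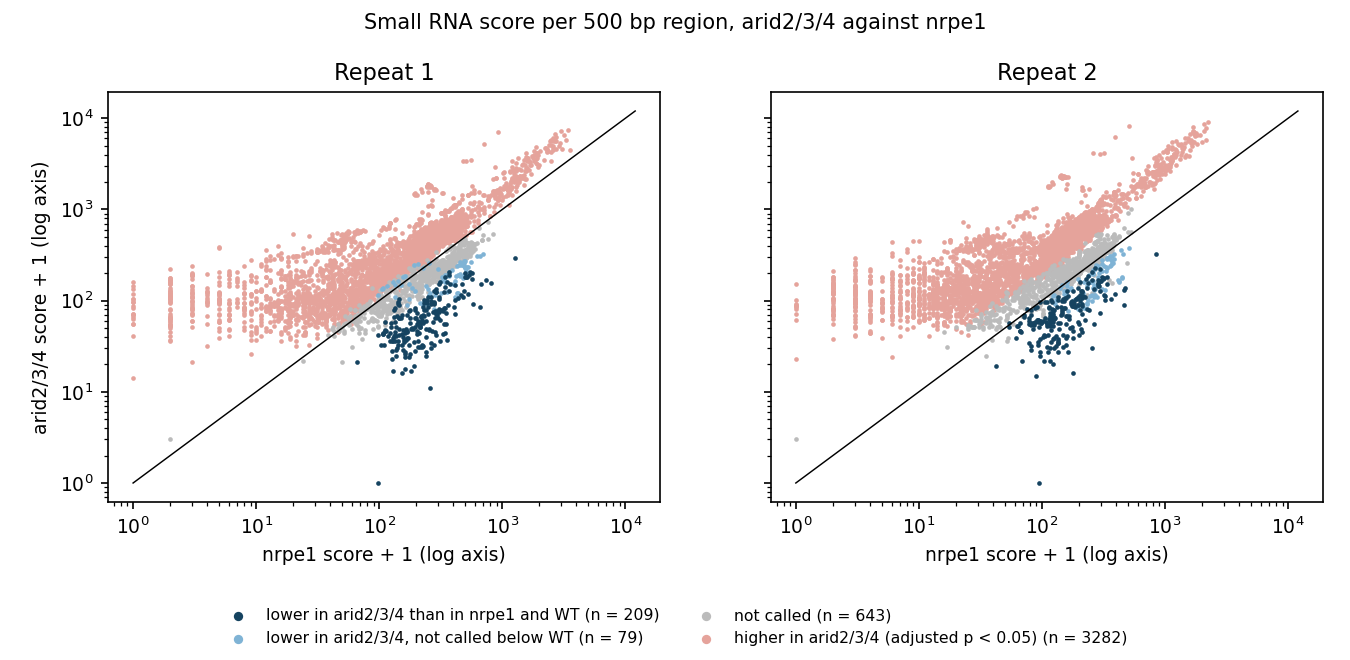
Score per region in arid2/3/4 (vertical) against nrpe1 (horizontal), both plus 1 on log axes, in repeat 1 and repeat 2; each point is 1 of 4213 regions, coloured by its limma call, and the line marks equal scores. Most points lie above the line, and 209 regions called lower than nrpe1 and WT are dark, of which 207 lie on or below it in both panels.

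The regions where ARID loss lowered siRNAs further than Pol V loss were a small share of those listed. Many of them lay in 1 array on chromosome 4, described below. There were 209 regions (4.96%) called lower in arid2/3/4 than in both nrpe1 and WT, in 160 families (regions sharing at least 50% of their 24-base words). A looser rule, called below WT with a score at or below that of nrpe1 in both repeats, gave 222 regions (5.27%) in 168 families, of which 207 are also among the 209. Both counts grow with scaling, to 577 and 671 at a common median and to 510 and 706 with quantile normalization. Both scores of arid2/3/4 lay below both scores of nrpe1 at 205 of the 209 regions and below both WT scores at all 209, which the selection of these regions favours. Median scores over the 209 were 58 and 65 in arid2/3/4, 220 and 136 in nrpe1 and 201 and 156 in WT. The median fitted difference was -0.82 for arid2/3/4 minus WT and -0.04 for nrpe1 minus WT, which are given side by side because they share the WT libraries. Most of these are thus regions where nrpe1 was not called away from WT (189), while 15 were called below WT in nrpe1 (7.18%, against 44.3% of all regions) and 5 above it (2.39%, against 1.02%). A low share for nrpe1 below WT is partly built in, since the regions were chosen for a nrpe1 score above that of arid2/3/4. Medians over the same regions were 306 and 346 in epcr1/2 and 117 and 106 in hda6.

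The regions most lowered lay in a few blocks on either side of the centromeres. Region 1 of the plot of named regions, chromosome 2 from 2604001 to 2604500, overlaps a coding exon of AT2G06555. It scored 85 and 89 in arid2/3/4, 663 and 463 in nrpe1 and 356 and 220 in WT. Here nrpe1 was the highest of the 3 genotypes and arid2/3/4 the lowest, with no overlap between them. The difference from nrpe1 was -1.87 ± 0.19 on the log2 scale (SE; 95% interval -2.24 to -1.50; limma adjusted p = 3.9e-22), and nrpe1 itself was 0.80 above WT (adjusted p = 5.6e-05). Region 2, chromosome 3 from 15639501 to 15640000, lies 2559 bp from the pseudogene AT3G43730 and showed the same order. It scored 36 and 29 in arid2/3/4, 356 and 253 in nrpe1 and 134 and 120 in WT (difference from nrpe1 -1.68, adjusted p = 7.3e-27, limma). Region 3, chromosome 4 from 3768001 to 3768500, lies 1330 bp from YY1, which encodes a zinc finger transcription factor. It scored 10 and 15 in arid2/3/4, 258 and 177 in nrpe1 and 116 and 121 in WT (difference from nrpe1 -1.58, adjusted p = 2.2e-37, limma). In these 3 regions, whose sequences are shown above, nrpe1 was called above WT and arid2/3/4 below it.

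In the next 5 named regions nrpe1 stood near WT, and arid2/3/4 was the low one of these 3 genotypes. Region 4, in an exon of AT3G43730, scored 90 and 102 in arid2/3/4, 575 and 365 in nrpe1 and 518 and 350 in WT. Region 5, in a coding exon of AT4G03580, scored 42 and 54 in arid2/3/4, 330 and 262 in nrpe1 and 349 and 265 in WT. Neither showed a called difference between nrpe1 and WT (0.09, adjusted p = 0.7, and -0.04, adjusted p = 0.86, limma). Region 6, 283 bp from the non-coding RNA gene AT2G05685, scored 70 and 72 in arid2/3/4, 409 and 295 in nrpe1 and 345 and 256 in WT. Region 7, 4039 bp from AT2G05830, scored 35 and 44 in arid2/3/4, 313 and 212 in nrpe1 and 252 and 179 in WT. Region 8, in the block of AT2G06555 and 1574 bp from that gene, scored 108 and 100 in arid2/3/4, 481 and 323 in nrpe1 and 451 and 375 in WT. The loss was not particular to arid2/3/4, since hda6, not tested here, was also low in some of these regions. It scored 293 and 210 in region 4, 123 and 144 in region 5, and 127 and 139 in region 7. In region 6 hda6 scored 349 and 277, and in region 8 it scored 397 and 275. In all 8 regions both arid2/3/4 scores lay below every nrpe1 and WT score. The 8 were chosen as the most negative of the set, so their sizes describe the extreme and not the typical member. All 8 had a median of 1 copy per 24-base word, and 74.6% or more of their words occurred once in the genome.

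**Figure D2:**
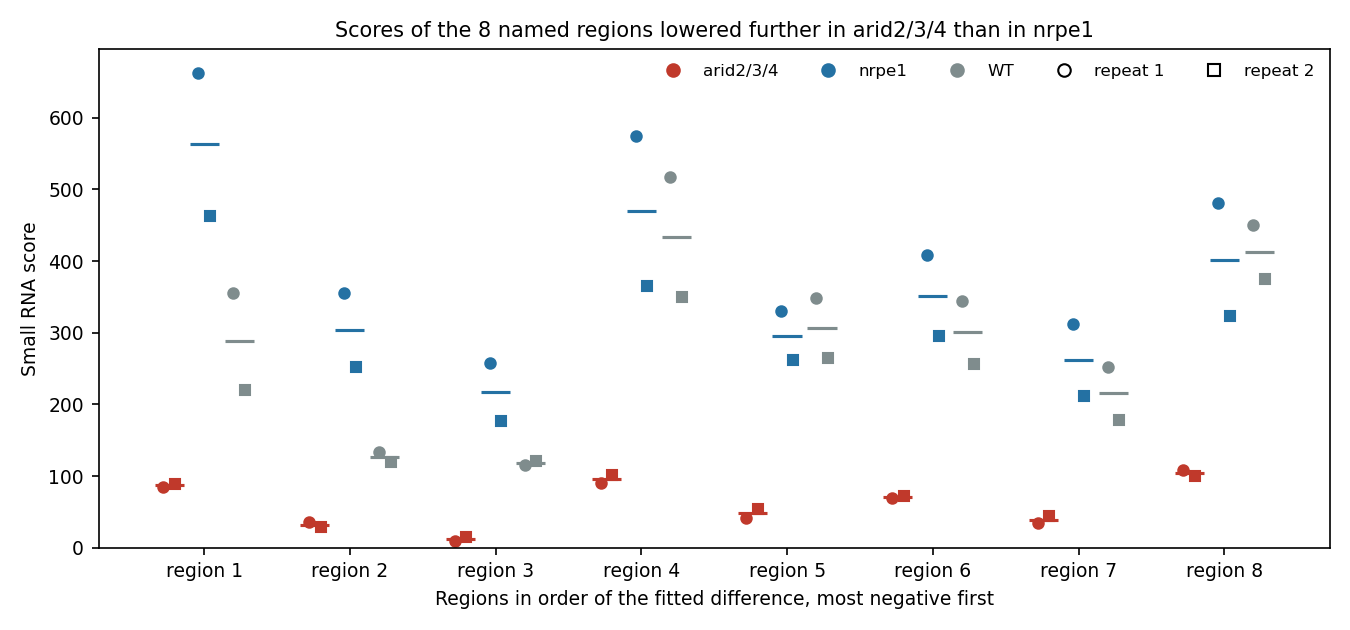
Score (vertical, linear from 0) in arid2/3/4, nrpe1 and WT for the 8 regions of the set most lowered against nrpe1, numbered as in the text; circles are repeat 1, squares repeat 2 and bars the mean of both. The arid2/3/4 scores run from 10 to 108 and lie below all nrpe1 and WT scores of the same region.

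Joining regions up to 2 kb apart put the 224 regions that met either rule into 97 loci, 70 in the pericentromere (within 3 Mb of the centromere) and 27 on the arms. Of these loci 69 held 1 region and 15 held 2, while 13 held 3 or more and accounted for 125 regions. Neighbouring regions may share siRNA clusters and are not independent, so the count of loci is given beside that of regions. Of regions with an adjoining listed region, 5.37% were lower than both nrpe1 and WT, or 3.22% without the chromosome 4 array described below. Of isolated regions 4.28% were. The block around AT3G43730, chromosome 3 from 15632501 to 15642500, held 13 such regions. Its summed scores were 733 and 835 in arid2/3/4, 3957 and 2677 in nrpe1, 6081 and 6283 in epcr1/2, 1815 and 1528 in hda6, and 3373 and 2483 in WT. The block around AT2G06550 and AT2G06555, chromosome 2 from 2603001 to 2607000, held 7, with summed scores of 998 and 961 in arid2/3/4, 4969 and 3178 in nrpe1 and 3497 and 2643 in WT. Both blocks kept their siRNAs in nrpe1 and lost most of them in arid2/3/4. In both, the summed scores of epcr1/2, the mutant of another PEAT component, were the highest of the genotypes listed (5180 and 5034 in the second block). Over all regions the medians of epcr1/2 (298 and 335) were also above those of WT (209 and 165). The longest block on an arm, chromosome 2 from 6972501 to 6976000, covers AT2G16018 and AT2G16030. Its 4 regions summed to 246 and 291 in arid2/3/4, 876 and 609 in nrpe1 and 801 and 645 in WT.

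The largest locus by far was a tandem array on the short arm of chromosome 4, from 1699001 to 1742500 (43.5 kb, 2.25 Mb from the centromere), where the Columbia strain is known to carry a heterochromatic knob. Within it 82.4% of 24-base words recur on the same strand, most often at a spacing of 1948 bp. The tables list 82 regions in it, of which 59 were lower in arid2/3/4 than in nrpe1, 0 were higher and 23 were not called. All 59 were also below WT, and they make up 28.2% of the 209. Median scores over the 82 were 89.5 and 102.5 in arid2/3/4, 280.5 and 180 in nrpe1 and 309 and 193 in WT. The ranges were 34 to 344 and 52 to 407 in arid2/3/4, 131 to 485 and 81 to 355 in nrpe1, and 126 to 588 and 100 to 343 in WT. The medians were thus close between nrpe1 and WT and lower in arid2/3/4, although single regions overlapped. In epcr1/2 they were 420 and 478.5, and in hda6 178.5 and 177. Its copies are so alike that their reads may be shared between regions and they are not independent. Without its 82 regions, 229 of 4131 regions were lower in arid2/3/4 than in nrpe1 (5.54%) and 150 were lower than both (3.63%).

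Other repeat families that lie in 1 stretch differed from this array. A family of 100 regions on chromosome 5 between 11824501 and 11960000 was higher in arid2/3/4 than in nrpe1 at all 100, with median scores of 617.5 and 738.5 in arid2/3/4, 243 and 191 in nrpe1 and 172.5 and 192.5 in WT, and this held at all 100 at a common median and at 93 with quantile normalization. A family of 71 regions on chromosome 4 between 2920501 and 2965000 was higher at all 71, with medians of 457 and 572 in arid2/3/4, 267 and 188 in nrpe1 and 180 and 153 in WT, but at 43 at a common median and at 6 with quantile normalization. A family of 53 regions on chromosome 1 between 14659501 and 14820500 stood between these as deposited, with 2 lower and 0 higher, and had all 53 lower under both scalings. It had medians of 287 and 319 in arid2/3/4, 428 and 286 in nrpe1 and 294 and 268 in WT. In this last family the repeats differed in sign, arid2/3/4 being the lower in repeat 1 and the higher in repeat 2. These families were picked by size after their values were seen.

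The share of regions lowered below nrpe1 differed along the chromosomes. In the pericentromere 248 of 2964 regions (8.37%; 189 of 2882, or 6.56%, without the array) were lower and 2181 (73.6%) higher, with median differences of 0.47 in repeat 1 and 0.95 in repeat 2. Arm regions numbered 1249, with 40 lower (3.20%), 1101 higher (88.2%) and medians of 0.72 and 1.00. By distance from the centromere, the share lowered further than both nrpe1 and WT was 1.03% within 1 Mb, 10.9% at 1 to 2 Mb, 16.1% at 2 to 3 Mb (5.07% without the array), 4.76% at 3 to 5 Mb and 1.27% beyond. The innermost megabase, with 1744 regions, therefore held 18 of the 209, and the flank from 1 to 2 Mb, with 724 regions, held 79. With quantile normalization the median fitted difference was -0.006 in the pericentromere and 0.19 on the arms, so the sign for the pericentromere as a whole depends on scaling. Under that scaling the innermost megabase held 212 of 510 regions lowered further, so the low share there also depends on scaling.

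**Figure D3:**
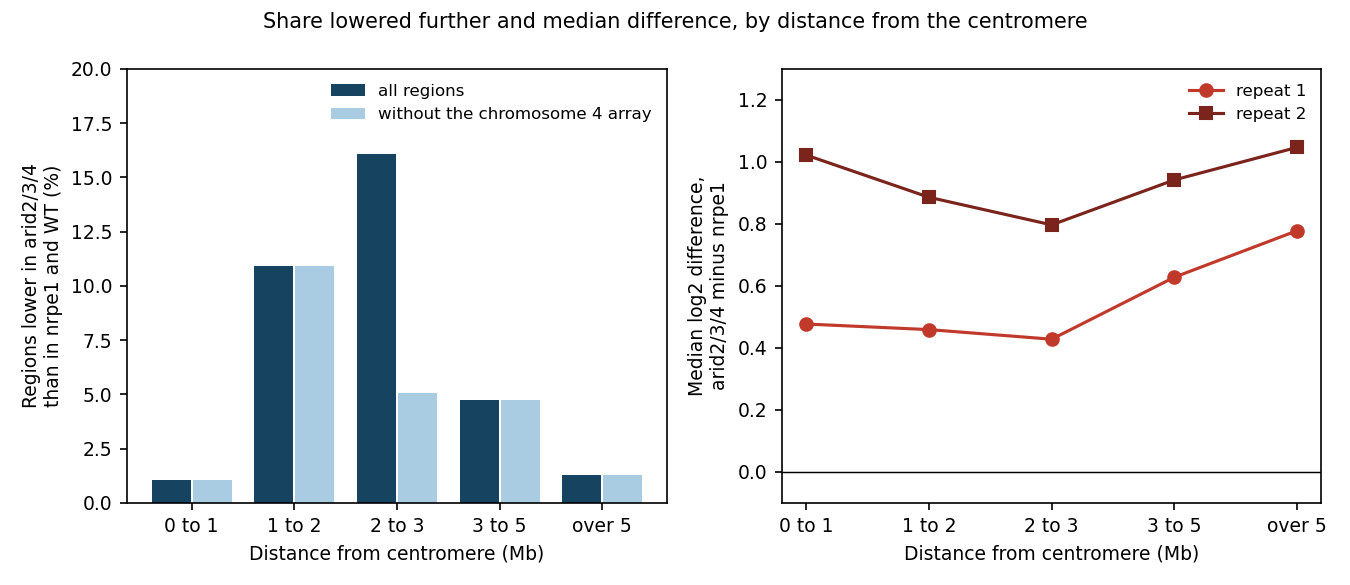
Left, share of regions (%) called lower in arid2/3/4 than in nrpe1 and WT by distance from the centromere (Mb), for all regions (dark) and without the chromosome 4 array (light); the share is highest at 1 to 3 Mb, and the array makes up most of the bar at 2 to 3 Mb. Right, median log2 difference of arid2/3/4 minus nrpe1 over the same regions in each repeat; it is above 0 at all distances as deposited, and with quantile normalization the median fitted difference in the pericentromere was -0.006.

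The lowered regions also differed in how often their sequence occurs in the genome. Each region was cut into 24-base words, the length of heterochromatic siRNAs, and a region with 80% or more of words found once is here a mostly single-copy region. Of 135 mostly single-copy regions in the pericentromere, 68 were lower in arid2/3/4 than in nrpe1 (50.4%), 59 were higher, and 66 were lower than both nrpe1 and WT (48.9%). Their median scores were 56 and 65 in arid2/3/4, 116 and 81 in nrpe1 and 186 and 139 in WT. Without the array, the share lower than nrpe1 in the pericentromere was 3.72% where under 20% of words occur once, 4.34% at 20 to 50% and 8.65% at 50 to 80%. On the arms the mostly single-copy regions behaved otherwise, with 7 of 166 lower (4.22%) and 156 higher. Their median scores were 104 and 111 in arid2/3/4, 10 and 7.5 in nrpe1 and 213.5 and 141.5 in WT. Mostly single-copy regions on arms thus had little small RNA in nrpe1, while those near centromeres were lower in arid2/3/4 at 68 regions and lower in nrpe1 at 59. The highest share was in the flank at 1 to 2 Mb, where 55 of 77 mostly single-copy regions were lower (71.4%). Joined separately, the 77 regions form 41 loci and the 55 form 19. The share was 6 of 13 (46.2%) within 1 Mb and 7 of 45 (15.6%) at 2 to 3 Mb. Counted as loci, the 135 pericentromeric regions form 89, and the 68 lowered ones 25. Of the 135 regions 75 were lower and 56 higher at a common median, and 75 were lower and 23 higher with quantile normalization, so the number higher depends on scaling.

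**Figure D4:**
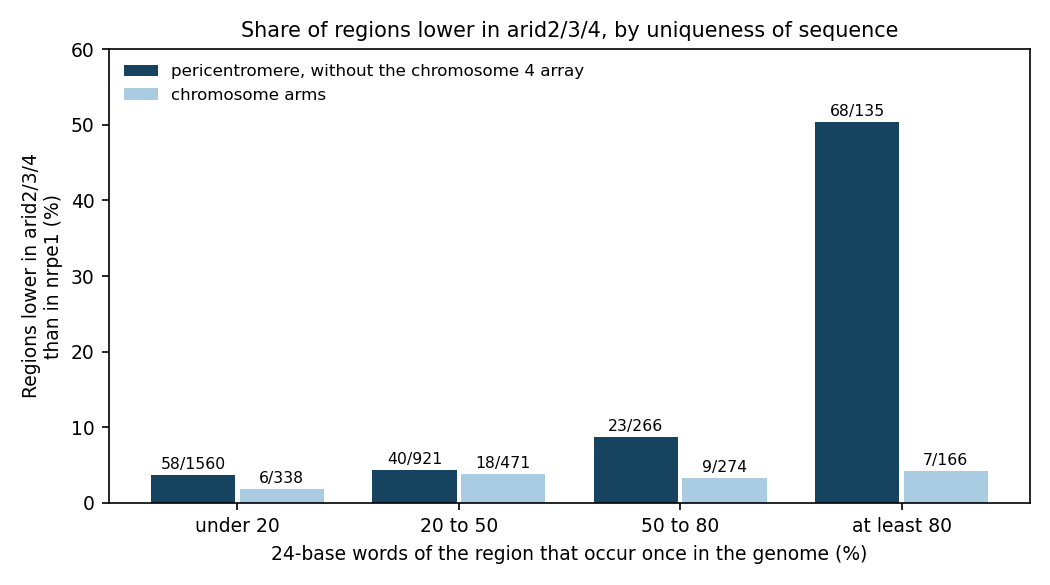
Share of regions (%) called lower in arid2/3/4 than in nrpe1, by the percent of the region's 24-base words that occur once in the genome, for the pericentromere without the chromosome 4 array (dark) and the arms (light); numbers above bars give regions lower over regions listed. The share reaches 50.4% for mostly single-copy pericentromeric regions and 4.22% for those on arms.

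Base composition was similar to that of the rest. The 209 regions had a median GC content of 33.8% and medians of 22 CG, 17 CHG and 121 CHH sites, against 34.6%, 18, 15 and 130 in all 4213 regions. By annotation, 31 of 647 pseudogene regions (4.79%) and 26 of 341 in gene bodies (7.62%) were lower in arid2/3/4 than in nrpe1, against 6.84% of all regions. So were 14 of 508 within 1 kb upstream of coding genes (2.76%), 6 of 47 at other RNA genes (12.8%) and 211 of 2670 between genes (7.9%). Between genes 152 of 2588 (5.87%) were lower once the array was left out, near the 5.54% of all regions without it. Of 19 regions at MIRNA genes 1 was lower (5.26%) and 16 were higher (84.2%, against 77.9% of all regions).

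At the other end, the largest excess of arid2/3/4 over nrpe1 was at regions that hold 1 short sequence. The 25 bases AAACATCTGATCGTTTGACTTGACA, in capitals in the stretch shown from chromosome 3, are in 27 of the 4213 regions (0.641%), and 26 of the 27 most positive regions hold them. The sequence was found by searching the 60 most positive regions for the 24-base word that most of them share, and then extending it. Its presence in the most raised regions, and the excess of arid2/3/4 over nrpe1 where it occurs, are therefore favoured by the search. The genome has 34 copies, of which 33 are in these regions, 19 regions being on arms and 8 in the pericentromere. The region of chromosome 3 from 7922001 to 7922500, with 3 copies, scored 7007 and 8286 in arid2/3/4, 921 and 511 in nrpe1 and 11904 and 7428 in WT (difference from nrpe1 3.31, adjusted p = 1.5e-19, limma). The 22 regions with 1 copy scored 1421 to 1907 and 1774 to 2363 in arid2/3/4, with medians of 1789.5 and 2259.5. The same regions scored 192 to 278 and 110 to 162 in nrpe1, with medians of 246 and 143.5. In WT their medians were 3052 and 2034.5. Every arid2/3/4 score lay above every nrpe1 score of these 22 regions, and regions with 2 or 3 copies scored higher in each library. The sources do not say how reads that map to several places were assigned, so these 27 regions are not independent observations. All 13 regions named as most raised, 8 on arms and 5 in the pericentromere, hold the sequence. Among them are a coding exon of RR13, a response regulator gene, and an intron of ADR1-L1, a helper immune receptor gene, and neither value can be assigned to that gene.

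**Figure D5:**
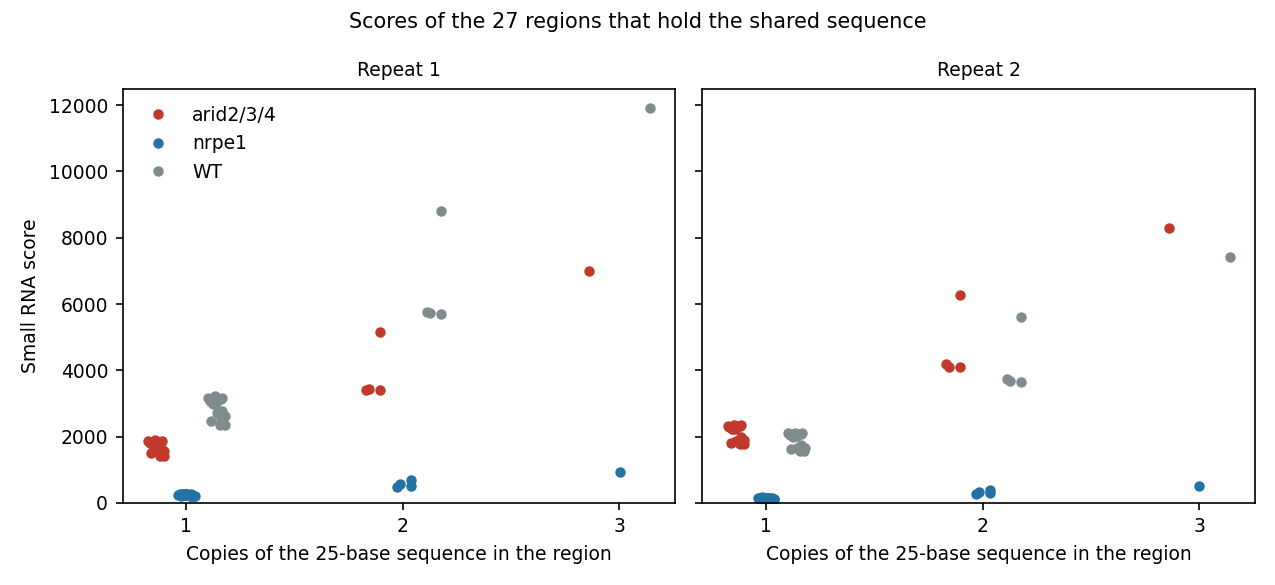
Score (vertical, linear from 0) in arid2/3/4, nrpe1 and WT of the 27 regions that hold the 25-base sequence, by the number of its copies in the region, in each repeat; each point is a region, spread sideways for legibility. Scores lie close together among regions with 1 copy and are higher with 2 and 3 copies, and nrpe1 lies far below arid2/3/4 throughout.

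Of 7 loci much studied in RNA-directed DNA methylation, 3 have regions in both tables. The region at soloLTR, a long terminal repeat much used to study Pol V silencing, on chromosome 5 from 9867501 to 9868000, scored 522 and 469 in arid2/3/4, 52 and 33 in nrpe1 and 618 and 491 in WT. arid2/3/4 was 2.15 above nrpe1 (adjusted p = 1.4e-27, limma) and was not called away from WT (adjusted p = 0.55). The region within 1 kb of MEA, an imprinted Polycomb gene, on chromosome 1 from 550001 to 550500, scored 38 and 66 in arid2/3/4, 30 and 21 in nrpe1 and 129 and 114 in WT. Both mutants were lower than WT there, and arid2/3/4 was 0.29 above nrpe1 (adjusted p = 0.0087, limma). This last call ends without arid2/3/4 replicate 2 (0.18, adjusted p = 0.2), without nrpe1 replicate 2 (0.17, adjusted p = 0.24) and at a common median (0.065, adjusted p = 0.5), and with quantile normalization the difference was -0.29 (adjusted p = 0.025, limma). At AtGP1, a Gypsy-type retrotransposon, all 7 regions were higher in arid2/3/4 than in nrpe1, with differences from 0.61 to 1.07, but 4 at a common median and 0 with quantile normalization, where differences ran from -0.05 to 0.36. Of these 7, the region 373 bp from AT4G03640 was no longer called without arid2/3/4 replicate 2 (0.49, adjusted p = 0.08, limma). Neither FWA, SDC, ROS1 nor AtMU1 had a region of both tables within 1 kb. Nor had any of 22 listed genes of this pathway and of related silencing, the latter being MET1, CMT2, CMT3, DDM1 and HDA6. As deposited, none of the 3 loci with regions was called lower in arid2/3/4 than in nrpe1.

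At 79 other regions arid2/3/4 was lower than nrpe1 without being called below WT. The most negative, chromosome 1 from 16298501 to 16299000, lies 143 bp from the pseudogene AT1G43230 and scored 105 and 130 in arid2/3/4, 435 and 263 in nrpe1 and 191 and 147 in WT. nrpe1 was 0.74 above WT there (adjusted p = 4.4e-05, limma), and arid2/3/4 was -0.32 from WT (adjusted p = 0.091). A region 164 bp from the pseudogene AT4G07523 scored 119 and 135 in arid2/3/4, 435 and 259 in nrpe1 and 164 and 108 in WT, so that arid2/3/4 lay close to WT and nrpe1 above both. The third named, 1006 bp from the pseudogene AT1G37170, scored 108 and 134 in arid2/3/4, 410 and 268 in nrpe1 and 178 and 141 in WT.

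At other regions both mutants were below WT with no called difference between them as deposited. Of 79 such regions with repeats of opposite sign or a fitted difference within 0.1, the 1 with the highest WT score lies on chromosome 1 from 24908001 to 24908500, upstream of SWEET6, a member of the sugar transporter family. It scored 140 and 163 in arid2/3/4, 144 and 70 in nrpe1 and 362 and 338 in WT. The 95% interval of the difference from nrpe1 was -0.02 to 0.66, which takes in an excess of up to 0.66 in arid2/3/4. A region in the pseudogene AT3G29805 scored 114 and 129 in arid2/3/4, 140 and 109 in nrpe1 and 307 and 313 in WT (interval -0.35 to 0.31). Under both scalings this region was called lower in arid2/3/4 than in nrpe1. The other 3 named regions of this kind scored 57 to 137 in arid2/3/4, 49 to 137 in nrpe1 and 186 to 278 in WT. In all 5 every score of the mutants lay below every WT score, which the selection of these regions favours. At 2 regions, singled out after their values were seen, both arid2/3/4 scores were 2 or less. The first, upstream of MYB3R-5 on chromosome 5 from 486501 to 487000, scored 2 and 2 in arid2/3/4, 1 and 0 in nrpe1 and 220 and 151 in WT. It scored 1 and 0 in hda6 and 97 and 111 in epcr1/2, so that its small RNA was nearly gone in 3 mutants and present in epcr1/2. The second, in the pseudogene AT4G06597 on chromosome 4 from 3655501 to 3656000, scored 0 and 0 in arid2/3/4, 96 and 94 in nrpe1 and 185 and 101 in WT. Its words have a median of 1340 copies in the genome, and epcr1/2 scored 183 and 0 there.

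The repeats differed in how many regions they placed below both nrpe1 and WT. In repeat 1, arid2/3/4 scored below WT and at or below nrpe1 at 622 regions (14.8%), and in repeat 2 at 304 (7.22%). The 273 regions common to both make up 43.9% of the first set and 89.8% of the second. Across regions, which are not independent replicates, the difference of arid2/3/4 and nrpe1 in the 2 repeats had a Spearman correlation of 0.897. The repeats thus ordered the regions alike and placed the point of equality differently.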

How the data were processed

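Small RNAs of 12 seedling libraries (6 genotypes with 2 repeats each) were given as 1 table per repeat, with a score for each 500 bp region. The authors mapped reads with Bowtie 0.12.2 to TAIR10, per the submitters' processing notes; the sources used here give no read sizes, scaling or rule for choosing regions. The deposited scores behave as rounded normalized abundances, so no count test was used and depth is unknown. Coordinates counted from 0 in the tables and were changed to count from 1. Genes and sequence came from RefSeq TAIR10.1, which has no class of transposable element, so pseudogenes stand in for them.

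All 12 libraries were fitted in limma 3.58.1 (R 4.3.3) on log2(score + 89), with the repeat as a block because each repeat has its own table, and a trended prior. The pseudocount, 89, is the lower quartile of nonzero scores. Residual degrees of freedom were 5 and the prior's were infinite, so every p-value rests on the trended spread. None uses the spread between a region's own repeats. P-values were adjusted over 4213 regions. On simulated data with 200 changed regions, 48% of changes of size 0.5 (log2) and 99% of those of size 1 were recovered, with 3.92% false calls. The simulation took independent noise of the fitted spread and no difference at the other regions. Its share of false calls therefore does not measure errors among the calls made here. Annotation, words and counts were computed in Python 3.11.15. Regions sharing at least 50% of their 24-base words formed a family.

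Members, lists and named regions were chosen with earlier results of these data known. Named were the 8 most negative regions below nrpe1 and WT, the 3 most negative of those not below WT, the most positive 8 on arms and 5 in the pericentromere, the 5 of highest WT score among those not separated, 1 per family and none within 2 kb of another, and all regions within 1 kb of listed loci. Regions singled out later are marked as such. Alternatives covered scaling, pseudocount, a filter on low scores, copy number, the block, the trend, the groups in the fit and each library in turn.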

Additional observations from a re-analysis of the deposited data

How the results depend on the processing

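In this order, regions lower in arid2/3/4 than in nrpe1, higher, lower than both nrpe1 and WT, and lowered as far or further numbered 288, 3282, 209 and 222. With libraries scaled to a common median the counts other than higher were 851, 577 and 671, and with quantile normalization all 4 were 975, 1086, 510 and 706. All 209 regions stayed in the set under the first scaling and 176 under the second. Among the 301 mostly single-copy regions alone they were 75, 215, 72 and 76. Fewer regions were tested there, but the share lower was larger, 24.9% against 6.84% of all regions. With a minimum change of 1.5 fold they were 68, 1404, 48 and 74. Above the lower quartile of scores, 145 regions were lowered as far or further. Leaving out each library in turn gave 214 to 393 lower, 2824 to 3422 higher, 158 to 250 lower than both and 181 to 348 lowered as far or further; the 348 is without nrpe1 replicate 2. The median difference of 0.75 over all regions was 0.25 at a common median, 0.037 with quantile normalization, 1.11 with a pseudocount 10 times smaller and 0.35 with one 4 times larger, and 0.53 to 0.97 without 1 repeat. The median of 0.86 on arms was 0.57, 0.19, 1.83 and 0.32 in the same settings, 1.20 above the lower quartile, and 0.72 to 1.00 without 1 repeat. The pericentromeric median of 0.71 was 0.16 at a common median, -0.012 with quantile normalization, 0.98 and 0.37 with the smaller and larger pseudocount, -0.27 among mostly single-copy regions, and 0.47 to 0.95 without 1 repeat. Apart from the settings whose construction gives it, the cause was not tested.

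Repeat numbers mark the table and not known pairs: deviations of same-numbered arid2/3/4 and nrpe1 libraries had a correlation of -0.0671, those of arid2/3/4 and WT 0.362, and those of nrpe1 and WT 0.158. Over all pairs of genotypes the correlations ran from -0.161 to 0.639. With no replicate block the 4 counts were 283, 3279, 207 and 222, so the pairing changed no count by over 1.5 times.

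Of the single named regions, 7 changed sign, 5 of them with no called difference between the mutants as deposited. The region upstream of SWEET6 went to -0.14 at a common median and -0.23 with quantile normalization. The region of AT3G29805 went to 0.037 without arid2/3/4 replicate 1, and without single libraries it ran from -0.15 to 0.12. At a common median it was -0.514 (adjusted p = 0.00025, limma) and with quantile normalization -0.495 (adjusted p = 0.0024, limma). It was thus called lower in arid2/3/4 under both scalings. The region 1381 bp from AT3G45220 went to -0.28 and -0.34 under the scalings, called lower in both (adjusted p = 0.0099 and 0.0092, limma). The region 182 bp from AT2G06415 went to -0.35 and -0.49 under the scalings, and from -0.34 (without nrpe1 replicate 2) to 0.42 (without nrpe1 replicate 1). The region near MEA went to -0.29 with quantile normalization, and 1 AtGP1 region, 373 bp from AT4G03640, to -0.048. The region upstream of MYB3R-5 went to -0.15 with quantile normalization and ran from -0.005 to 0.053 without single libraries. With nrpd1 left out of the fit the 4 counts were 264, 3237, 196 and 217. Chosen after seeing the data, leaving out the 27 regions with the 25-base sequence gave 288, 3255, 209 and 222, and leaving out the chromosome 4 array gave 229, 3282, 150 and 161. Only 2 libraries per genotype and unknown depth limit all of these results.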

Other observations

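Regions listed in only 1 table lie outside the comparison above. Of 1630 regions listed for repeat 1 alone, arid2/3/4 scored below WT and at or below nrpe1 at 193 (11.8%), with median scores of 155 in arid2/3/4, 115 in nrpe1 and 116 in WT. Of 282 listed for repeat 2 alone, it did so at 102 (36.2%), with medians of 70 in arid2/3/4, 70.5 in nrpe1 and 113 in WT. Over the 4213 regions of both tables the same rule took in 14.8% in repeat 1 and 7.22% in repeat 2. The rule for listing regions is not known, and whether it shapes these shares was not tested. With 1 library per genotype at the regions of only 1 table no test was made. Their values were not part of the choice of the members described above.

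The pericentromere of chromosome 1 had a median fitted difference of 0.24 between arid2/3/4 and nrpe1 over 767 regions, against 0.71 to 0.91 in the other 4 chromosomes. It was -0.23 at a common median and -0.34 with quantile normalization, so its direction depends on scaling. In 2 families of 32 regions each on chromosome 1, between 14942001 and 14997500, 0 regions were called in either direction as deposited. Under the scalings nearly all were lower in arid2/3/4, with 32 of 32 in both families at a common median, and 31 and 32 with quantile normalization. The first had median scores of 290.5 and 329 in arid2/3/4, 375.5 and 254.5 in nrpe1 and 273.5 and 252 in WT.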
